A study of Mus musculus with 12 samples.

Results

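Chemokine ligands were followed in RNA sequencing of the inferior vena cava (IVC) of mice with an aortocaval arteriovenous fistula (AVF). The members were all protein-coding genes of the count table whose mouse symbol begins with Ccl, Cxcl, Cx3cl or Xcl and a digit. 42 of the 55414 genes of the table met this rule, which used the symbols and no measured value. 5 further rows with such a symbol, all Ccl19 pseudogenes, were left out.

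The 12 samples were the IVC of 12 wild-type C57BL/6J mice aged 10 weeks, 6 with an infrarenal AVF and 6 sham-operated, taken on postoperative day 7, with 3 male and 3 female mice in each group. The AVF was made by a needle puncture from the aorta into the IVC, and sham mice had the same surgery without the puncture, so laparotomy, clamping and analgesia were shared by both groups. The AVF mice were males #04, #05 and #06 and females #07, #09 and #11, and the sham mice were males #16, #17 and #18 and females #19, #22 and #23. All veins were taken after flushing with saline and sequenced without separating cells, so the values are of a mixture of cells. For AVF mice the study gives the segment, which ran from the fistula to the left renal vein. Libraries held 15177881 to 22717423 counts, and ribosomal RNA took 46.0% of the counts of #07 against 2.39% to 12.6% of the others. Summed levels of the vein wall markers were 1616 to 2761 normalized CPM, which are counts scaled to library size, for endothelium and 2205 to 4773 CPM for smooth muscle in all 12 libraries. White fat markers summed to 554 to 1189 CPM in AVF and 517 to 1166 CPM in sham. The libraries of AVF #05 and #09, a male and a female that the study sets apart from its other 4 AVF, held 2519 and 7029 CPM of hepatocyte markers, against 0.478 to 3.76 CPM in the other 10. The labels do not name these 2 mice as a group, so their values are given by mouse.

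Chemokines are small secreted proteins that bind G protein-coupled receptors and steer leukocytes along gradients held on matrix and endothelium. CC and CXC ligands are named for the spacing of their first cysteines. Ligands of Ccr2 draw monocytes out of blood, eotaxins draw eosinophils through Ccr3, Ccl19 and Ccl21 guide dendritic cells and T cells through Ccr7, ligands of Cxcr2 draw neutrophils, and Cxcl12 retains progenitors and leukocytes through Cxcr4. In a fistula the vein receives arterial flow, and its wall thickens and takes up leukocytes, macrophages among them.

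Detection came first. A gene was taken as detected in a library with 3 or more counts, which is 0.127 to 0.324 normalized CPM at these depths. 23 of the 42 members were detected in all 12 libraries, 13 in 1 to 11 libraries and 6 in none. Ccl1, a ligand of Ccr8, Ccl20, the ligand of Ccr6, and Ccl26, an eotaxin, had a count of 0 in every library, which allows up to 3 counts in each. Ccl27b, Cxcl3 and Cxcl15 did not reach 3 counts in any library. 4 of the 13 members that were detected in part of the libraries were the Ccl21 copies Ccl21b, Ccl21d, Ccl21e and Ccl21f. The other 9 were detected in 10 (Ccl3), 9 (Cxcl2 and Xcl1), 7 (Cxcl11), 6 (Cxcl5) and 3 (Ccl4, Ccl17, Ccl27al and Cxcl17) libraries, with means in both groups under 0.5 CPM. These limits cover counting error only.

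Compared per length, as CPM per kb of merged exons, the ligands spanned a wide range in the sham IVC. The highest mean levels were those of Ccl21a (88.0 ± 28.4 CPM per kb, SD, n = 6), Ccl11 (54.1 ± 7.80), Ccl6 (49.0 ± 12.7), Cxcl12 (41.8 ± 8.58), Ccl8 (21.6 ± 8.64) and Ccl9 (20.4 ± 4.16). In this order, Ccl11 and Ccl6, Ccl6 and Cxcl12, and Ccl8 and Ccl9 were neighbours closer together than their SDs. In the AVF the order was Ccl6 (106 ± 40.9 CPM per kb), Ccl21a (102 ± 23.3), Ccl8 (62.8 ± 16.6), Ccl9 (43.7 ± 10.1), Cxcl12 (42.9 ± 7.29) and Ccl11 (31.0 ± 7.03), so the same 6 ligands led and Ccl11 moved from the second to the sixth place. Summed over the 42 members, normalized CPM was 1031 ± 180 in AVF and 796 ± 94.9 in sham (SD, n = 6), and Cxcl12, Ccl6, Ccl9 and Ccl21a together made up 71.4% to 79.1% of it in every library.

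**Figure D1:**
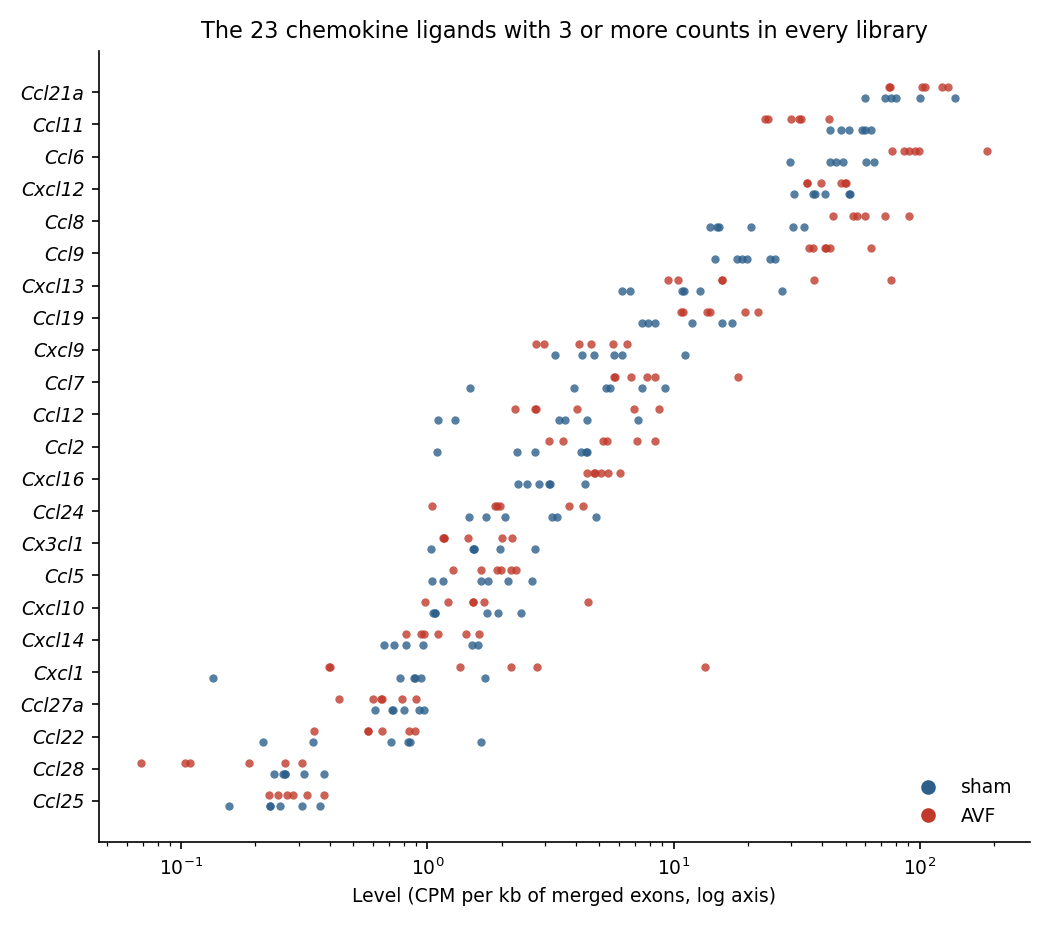
Level of each of the 23 ligands with 3 or more counts in every library, in CPM per kb of merged exons on a log axis, with 1 point per library (6 sham in blue, 6 AVF in red), ordered by the sham mean. The AVF points lie right of the sham points for Ccl8, Ccl9, Ccl6 and Cxcl16 and left of them for Ccl11, and overlap them for the other 18 ligands.

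27 of the 42 members exceeded 1 CPM in 2 or more libraries, the filter of the study, and were tested among 15912 genes with edgeR's quasi-likelihood test. A differentially expressed gene (DEG) had a p value under 0.05 after Benjamini-Hochberg adjustment across the 15912 genes and a change of 2-fold or more (1 on the log2 scale). 3 ligands, Ccl8, Ccl6 and Ccl9, were DEG higher in AVF, against 3.37% of all tested genes. None was a DEG lower in AVF, against 1.4% of all tested genes. With the adjusted p value alone, Cxcl16 was also higher, so 4 of 27 ligands were higher, against 8.63% of all tested genes, and Ccl11 was lower, 1 of 27 against 5.13%. These 5 were also the ligands whose 6 AVF and 6 sham values did not overlap, which held for 6.06% of all tested genes. 7 of the 27 had an unadjusted p value under 0.05, against 31.6% of all tested genes. The median log2 fold change was 0.16 over the 27 ligands and -0.01 over all tested genes, with 19 ligands above 0 and 8 below. Ccl21b and Ccl21e, both among the 19, had the same value in every library. With the copies of Ccl19, Ccl21 and Ccl27 summed, 23 ligands were tested, and their median was 0.16. The median over the 27 ligands was 0.10 without #04 and 0.34 without #17, the lowest and highest with any library left out. Without #05 and #09 the same 5 ligands had an adjusted p under 0.05. The log2 fold change of 4 ligands that were not called changed sign without them, Ccl24 (-0.16 to 0.12), Cxcl10 (0.31 to -0.19) and the copies Ccl21b and Ccl21e (0.12 to -0.29 each), and that of Cx3cl1 went from -0.17 to -0.48 (adjusted p = 0.234). In such a mixture of cells, more RNA per cell and more cells of a type cannot be told apart.

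4 of the 5 genes lie in the chemokine clusters of chromosome 11. The clusters hold 6 (Ccl2 to Ccl1) and 5 (Ccl5 to Ccl4) of the 42 members. Ccl2, Ccl7, Ccl12 and Ccl5 in them were tested as well and not called. In GRCm39, Ccl11 (chr11:81948618-81953781, + strand), Ccl12 and Ccl8 (chr11:82006007-82007625, + strand) follow each other in that order with Ccl2 and Ccl7 before them, and 11540 bases separate Ccl12 from Ccl8. Ccl9 (chr11:83463745-83473161) and Ccl6 (chr11:83478708-83483913) lie side by side on the - strand, 5546 bases apart. Cxcl16 lies elsewhere on the chromosome (chr11:70344517-70352620, - strand). Promoter windows of RefSeq on GRCm38.p6 were at hand for 28 of the 42 members, Ccl11 and Cxcl16 not among them. The 250 bases upstream of the start of transcription are shown for Ccl8 (chr11:82114935-82115184, + strand) and its neighbour Ccl12 (chr11:82101595-82101844, + strand), of which Ccl8 rose and Ccl12 was not called, and for the neighbours Ccl9 (chr11:83578637-83578886, - strand) and Ccl6 (chr11:83593088-83593337, - strand), which both rose. Capitals mark TATAAA, the TATA box, on the strand of the gene, and AGGAAG, the core bound by ETS factors such as the myeloid factor PU.1, on either strand, where the other strand reads CTTCCT.
Ccl8: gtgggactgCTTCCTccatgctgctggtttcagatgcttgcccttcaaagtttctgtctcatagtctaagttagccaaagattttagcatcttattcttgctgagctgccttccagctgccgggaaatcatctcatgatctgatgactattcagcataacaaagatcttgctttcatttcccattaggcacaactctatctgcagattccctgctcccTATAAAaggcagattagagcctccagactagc
Ccl12: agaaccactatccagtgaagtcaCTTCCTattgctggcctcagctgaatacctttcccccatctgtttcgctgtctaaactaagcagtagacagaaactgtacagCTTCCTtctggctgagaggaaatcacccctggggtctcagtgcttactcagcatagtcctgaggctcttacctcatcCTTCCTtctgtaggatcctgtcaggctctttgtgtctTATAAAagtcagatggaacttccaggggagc
Ccl9: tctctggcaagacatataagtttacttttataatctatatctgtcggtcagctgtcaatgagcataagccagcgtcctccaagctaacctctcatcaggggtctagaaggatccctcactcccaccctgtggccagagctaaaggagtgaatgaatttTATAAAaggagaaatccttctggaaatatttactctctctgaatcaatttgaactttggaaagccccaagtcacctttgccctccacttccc
Ccl6: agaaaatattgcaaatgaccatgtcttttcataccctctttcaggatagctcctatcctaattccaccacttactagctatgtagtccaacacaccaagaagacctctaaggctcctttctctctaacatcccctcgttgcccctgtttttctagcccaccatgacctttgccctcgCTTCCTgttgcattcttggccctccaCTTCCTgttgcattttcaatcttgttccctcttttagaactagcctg

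The windows of Ccl8 and Ccl12 resembled each other, with 153 identical bases of 203 in the best local alignment (75.4%). That alignment scored 43.5, and the other 5 pairs of the 4 windows scored 12.5 to 19.0. TATAAA was present in the windows of Ccl8, Ccl12 and Ccl9 and of 9 of the 28 ligands, against 7.59% of 32851 windows of all genes. AGGAAG was present in those of Ccl8, Ccl12 and Ccl6 and of 15 of the 28 ligands, against 29.5% of all windows. On both strands, TGANTCA, the AP-1 motif, was present in 4 of the 28 ligand windows against 6.75% of all, and the NF-kB motif in 7 against 7.25%, and the window of Ccl9 held both. TTCNNNGAA, the STAT motif, was present in 2 of 28 against 7.02% of all, and TTGCNNAA, a C/EBP motif, in 5 against 9.56%. Neither lay in the 4 windows shown. Near-identical gene copies were counted as separate ligands. The C/EBP windows were those of the copies Ccl21a, Ccl21d, Ccl27a and Ccl27b, and of Cxcl13. The AP-1 and AGGAAG counts also hold both Ccl27a and Ccl27b. A match of letters describes the window and is not a measured binding site.

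Ccl8, also called monocyte chemoattractant protein 2, was the ligand with the largest change among those called. In the AVF its level was 37.4, 28.7 and 27.5 CPM in males #04, #05 and #06 and 22.8, 30.8 and 46.7 CPM in females #07, #09 and #11. In sham it was 7.86, 10.6 and 17.4 CPM in males #16, #17 and #18 and 7.26, 7.72 and 15.8 CPM in females #19, #22 and #23. Every AVF vein was above every sham vein, with the lowest AVF value in #07 and the highest sham value in #18. The mean was 32.3 ± 8.53 CPM in AVF and 11.1 ± 4.45 CPM in sham (SD, n = 6), a log2 fold change of 1.54 (SE 0.25, adjusted p = 0.00257, edgeR). Without #05 and #09 the log2 fold change was 1.61 (adjusted p = 0.00799).

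Ccl9, also called macrophage inflammatory protein 1 gamma, and Ccl6, also called C10, are rodent CC chemokines of myeloid cells that act on Ccr1. Ccl9 was at 130, 115 and 111 CPM in AVF males #04, #05 and #06 and at 128, 135 and 198 CPM in AVF females #07, #09 and #11. In sham it was at 80.7, 46.1 and 56.2 CPM in males #16, #17 and #18 and at 76.5, 59.1 and 62.0 CPM in females #19, #22 and #23. The groups did not overlap, and the lowest AVF value, in #06, stood above the highest sham value, in #16. Its mean was 136 ± 31.5 CPM in AVF and 63.4 ± 13 CPM in sham (SD, n = 6), a log2 fold change of 1.10 (SE 0.16, adjusted p = 0.00139, edgeR).

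Ccl6 was at 157, 165 and 141 CPM in AVF males #04, #05 and #06 and at 174, 181 and 343 CPM in AVF females #07, #09 and #11. In sham it was at 110, 54.3 and 78.8 CPM in males #16, #17 and #18 and at 119, 83.3 and 89.1 CPM in females #19, #22 and #23. The groups again did not overlap, and #11 was the highest library for Ccl6 as for Ccl9, while #19 and #16 were the highest sham libraries for both. Its mean was 194 ± 74.4 CPM in AVF and 89.0 ± 23.1 CPM in sham (SD, n = 6), a log2 fold change of 1.12 (SE 0.23, adjusted p = 0.00979, edgeR). Both genes were DEG on the fold threshold only with #11. Without it the log2 fold change was 0.87 for Ccl6 (adjusted p = 0.0114) and 0.96 for Ccl9 (adjusted p = 0.00227), both under the threshold of 1.

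Cxcl16 is a membrane-bound chemokine and scavenger receptor of macrophages and endothelium whose receptor is Cxcr6. In AVF it was at 22.8, 31.0 and 26.1 CPM in males #04, #05 and #06 and at 24.4, 24.6 and 27.8 CPM in females #07, #09 and #11. In sham it was at 13, 16.1 and 16.0 CPM in males #16, #17 and #18 and at 14.5, 11.9 and 22.3 CPM in females #19, #22 and #23. The groups did not overlap, but the lowest AVF value (#04) and the highest sham value (#23) were close together. The mean was 26.1 ± 2.95 CPM in AVF and 15.7 ± 3.68 CPM in sham (SD, n = 6), a log2 fold change of 0.74 (SE 0.14, adjusted p = 0.00631, edgeR).

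Ccl11, eotaxin-1, was the ligand that fell. In AVF it was at 47.6, 36.8 and 27.0 CPM in males #04, #05 and #06 and at 33.3, 26.2 and 36.1 CPM in females #07, #09 and #11. The sham level was at 53.4, 66.8 and 65.0 CPM in males #16, #17 and #18 and at 48.0, 57.7 and 70.6 CPM in females #19, #22 and #23. The highest AVF value (#04) was just under the lowest sham value (#19). The mean was 34.5 ± 7.82 CPM in AVF and 60.3 ± 8.68 CPM in sham (SD, n = 6), a log2 fold change of -0.80 (SE 0.15, adjusted p = 0.00479, edgeR).

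**Figure D2:**
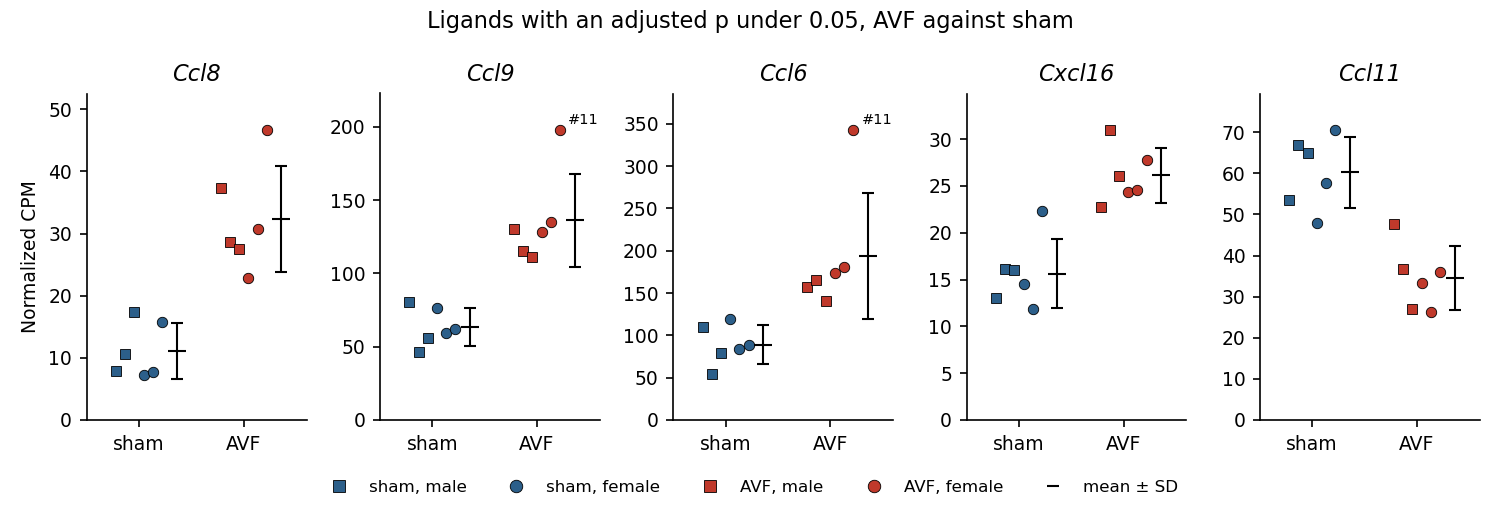
Normalized CPM of the 5 ligands with an adjusted p under 0.05, with 1 point per library (squares for males, circles for females), 6 sham in blue and 6 AVF in red, and the mean ± SD as a black bar beside each group. No AVF point overlaps the sham points in any panel, and #11 is the highest point for Ccl9 and Ccl6.

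Most marker genes of macrophages and monocytes were higher in AVF. 5 of the 7 markers (Cd68, Adgre1, Csf1r, Itgam and Lyz2) had an adjusted p under 0.05 and were higher in AVF, none was lower, and their summed level was 1012 to 1586 CPM in AVF and 516 to 868 CPM in sham. 3 of the 5 fibroblast markers (Lum, Col1a1 and Dpt) were also higher, while Pdgfra and Dcn were not called (adjusted p = 0.9 and 0.665, edgeR). The 5 summed to 10061 to 15525 CPM in AVF and 5384 to 9961 CPM in sham. Col1a1, a collagen gene, had the highest mean of the 5, at 8287 ± 1953 CPM in AVF and 3284 ± 1154 CPM in sham (SD, n = 6). None of the 4 neutrophil, 5 T cell, 6 B cell and 6 dendritic cell markers that were tested had an adjusted p under 0.05, and the whole lists had summed levels of 25.4 to 45.3 and 14.9 to 109 CPM, 7.68 to 12.7 and 6.61 to 12.5 CPM, 6.80 to 17.4 and 4.16 to 12.1 CPM, and 33.8 to 47.0 and 33.6 to 39.2 CPM in AVF and sham. No marker of these 6 lists was at 0 in all libraries. Brown fat markers summed to 17.3 to 198 CPM in AVF and 95.2 to 1467 CPM in sham, with 2 of 5 (Cidea and Cpt1b) lower in AVF, and neuron markers to 63.6 to 430 and 173 to 729 CPM, with 1 of 5 (Elavl4) lower. The part of these cells in the change of any ligand was not tested.

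Relative to the summed macrophage and monocyte markers of the same library, the 5 ligands differed. The ratio of Ccl8 to the markers was 0.0221 to 0.0304 in AVF and 0.00966 to 0.0201 in sham, still with no overlap. The ratio of Ccl11 was 0.0217 to 0.0370 in AVF and 0.0657 to 0.112 in sham, and its ratio to the fibroblast markers was 0.00175 to 0.00382 and 0.00653 to 0.0106, both with no overlap. The ratios of Ccl9 (0.0891 to 0.133 in AVF, 0.0644 to 0.148 in sham), Ccl6 (0.113 to 0.216 and 0.0757 to 0.230) and Cxcl16 (0.0175 to 0.0287 and 0.0159 to 0.0281) overlapped. Relative to the fibroblast markers, the ratio of Ccl8 overlapped as well, at 0.00178 to 0.00306 in AVF and 0.00115 to 0.00225 in sham. The fibroblast sum includes Col1a1, so ratios to it also follow that gene. Likewise, Lyz2 and Mrc1 had the highest means of the 7 macrophage and monocyte markers, so ratios to that sum mostly follow them. Lyz2 was at 605 ± 92.3 CPM in AVF and 339 ± 84.8 CPM in sham (SD, n = 6). Mrc1 was at 301 ± 83.6 and 194 ± 55.3 CPM (SD, n = 6; adjusted p = 0.0596, edgeR). All these ratios are descriptions and were not tested.

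**Figure D3:**
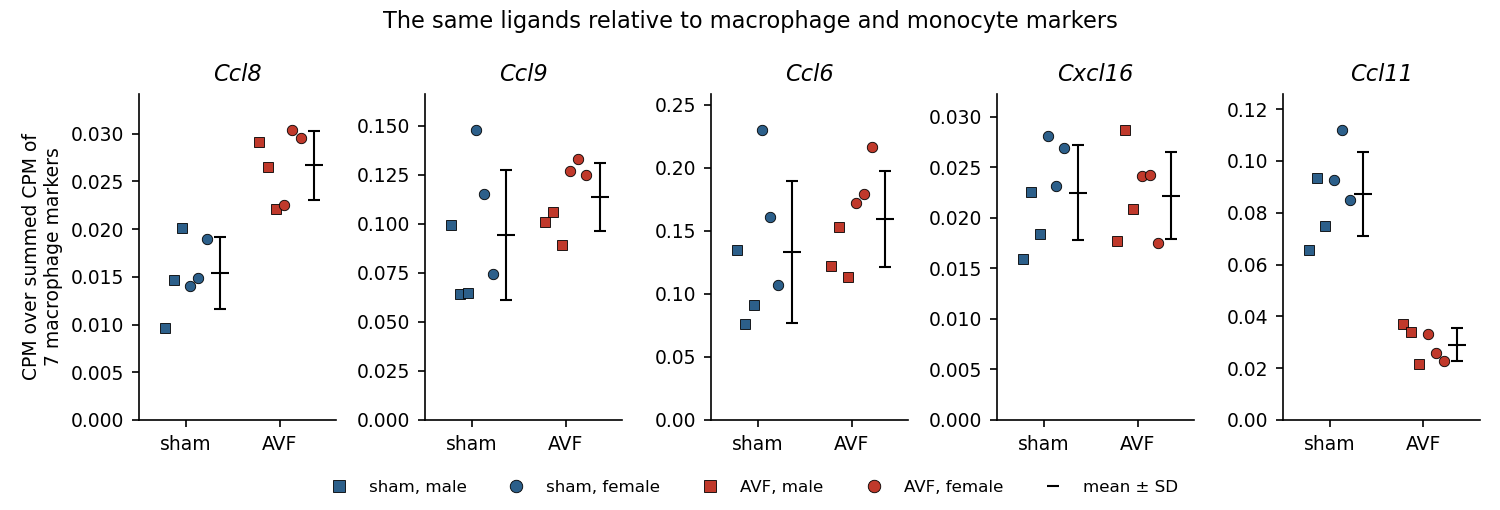
Normalized CPM of the same 5 ligands divided by the summed CPM of 7 macrophage and monocyte markers in the same library, with 1 point per library (squares for males, circles for females; 6 sham in blue, 6 AVF in red) and the mean ± SD as a black bar. AVF points lie above the sham points for Ccl8 and below them for Ccl11, and overlap them for Ccl9, Ccl6 and Cxcl16.

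Ccl2, Ccl7 and Ccl12, listed here in the same group as Ccl8, were detected in every library, each at a lower level per length than Ccl8. The grouping follows a list of ligands by receptor, here Ccr2, and the receptor on which mouse Ccl8 acts was not tested. Ccl2, the main monocyte chemoattractant, was at 3.56 to 9.56 CPM (median 5.98) in AVF and 1.25 to 5.05 CPM (median 3.96) in sham, with overlapping groups, a log2 fold change of 0.77 (SE 0.34, adjusted p = 0.140, edgeR). Ccl7 had a log2 fold change of 0.68 (SE 0.39, adjusted p = 0.262) and its highest value, 14.7 CPM, in AVF #04, without which its log2 fold change was 0.33. Ccl12 was at 3.68 ± 2.13 CPM in AVF and 2.82 ± 1.80 CPM in sham (SD, n = 6; adjusted p = 0.615, edgeR). Of the 3 further CC ligands grouped with Ccl6 and Ccl9, Ccl5, a chemokine of T cells and platelets, was at 1.94 ± 0.380 and 1.78 ± 0.617 CPM (SD, n = 6; adjusted p = 0.777, edgeR), and Ccl3 and Ccl4 stayed under the filter.

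Among the ligands of Cxcr2, only Cxcl1 passed the filter. Cxcl1 was at 0.751 to 25.2 CPM (median 3.33) in AVF and 0.254 to 3.22 CPM (median 1.66) in sham, with a log2 fold change of 1.95 (SE 0.81, adjusted p = 0.120, edgeR). Its 2 highest values were in #09 (25.2 CPM) and #05 (5.26 CPM), the libraries with hepatocyte markers, and without both its log2 fold change was 0.32 (adjusted p = 0.764). By edgeR's exact test Cxcl1 was a DEG, with an adjusted p = 0.0433. Cxcl5 was at 0.0453 to 0.987 CPM in AVF and 0 to 0.194 CPM in sham, highest in #09 and #05, and had an adjusted p = 0.117 with no filter. Cxcl2 (0.304 ± 0.217 and 0.319 ± 0.230 CPM in AVF and sham, SD, n = 6) was near the limit of detection. The receptor Cxcr2 itself was at 1.89 to 6.04 CPM in AVF and 0.727 to 16.9 CPM in sham.

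The interferon-induced ligands of Cxcr3 did not pass the test. Cxcl9 was at 13.4 ± 4.43 CPM in AVF and 17.8 ± 8.39 CPM in sham (SD, n = 6; log2 fold change -0.41, SE 0.29, adjusted p = 0.364, edgeR). Cxcl10 was at 4.30 ± 2.92 and 3.48 ± 1.27 CPM (SD, n = 6; adjusted p = 0.610, edgeR), with 10.1 CPM in #09 and 2.21 to 3.83 CPM in the other AVF libraries, and its log2 fold change went from 0.31 to -0.15 without #09. Cxcl11 stayed under the filter at 0.170 ± 0.216 and 0.333 ± 0.256 CPM (SD, n = 6).

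Cxcl13, which attracts B cells through Cxcr5, was at 10.9 to 88.1 CPM (median 18.1) in AVF and 7.11 to 31.8 CPM (median 12.5) in sham. 2 AVF libraries, #11 (88.1 CPM) and #04 (42.9 CPM), stood above all others. The log2 fold change was 1.14 (SE 0.54, adjusted p = 0.168, edgeR) and fell to 0.51 without #11.

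**Figure D4:**
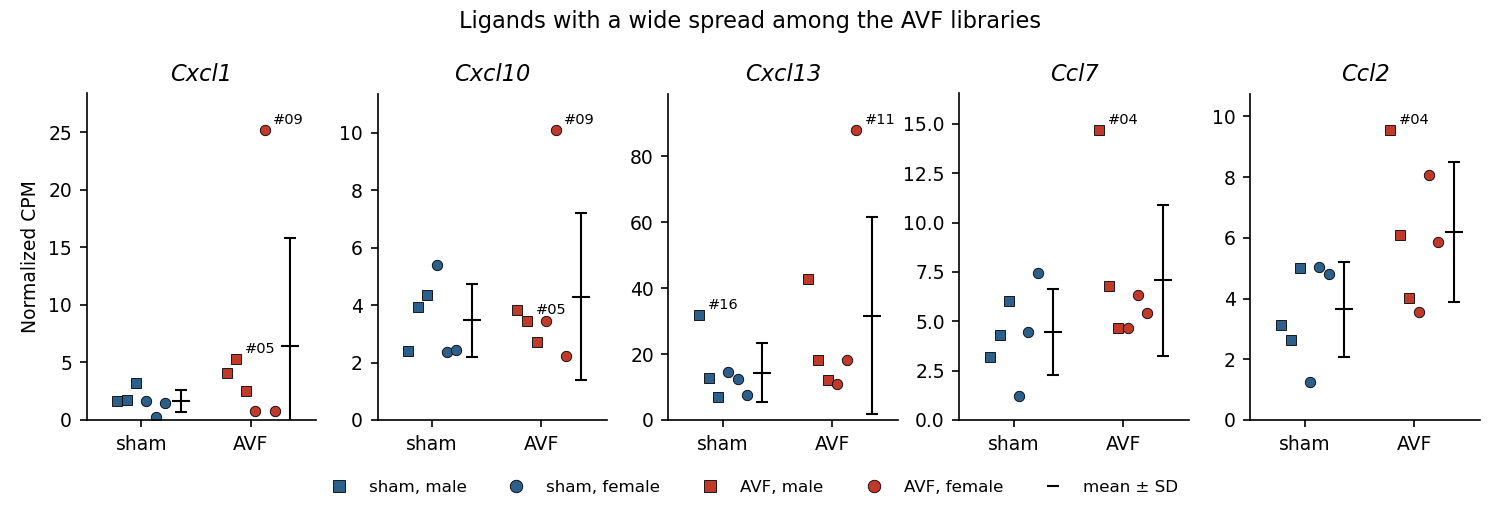
Normalized CPM of Cxcl1, Cxcl10, Cxcl13, Ccl7 and Ccl2, with 1 point per library (squares for males, circles for females; 6 sham in blue, 6 AVF in red) and the mean ± SD as a black bar, whose lower arm is cut at 0 for Cxcl1. The highest AVF values lie in #09 for Cxcl1 and Cxcl10, in #11 for Cxcl13 and in #04 for Ccl7 and Ccl2.

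Cxcl12 and the ligands of Ccr7 were the abundant ligands that were not called. Cxcl12 was at 416, 401 and 331 CPM in AVF males #04, #05 and #06 and at 290, 292 and 418 CPM in AVF females #07, #09 and #11. The sham values were 344, 435 and 432 CPM in males #16, #17 and #18 and 308, 257 and 315 CPM in females #19, #22 and #23. The ranges overlapped over most of their length, and the log2 fold change was 0.04 (SE 0.15, adjusted p = 0.883, edgeR).

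Ccl21 is made by lymphatic endothelium and lymphoid stroma, and the mouse genome holds several near-identical copies of it on chromosome 4. Ccl21a, the copy with most counts, was at 127, 120 and 99.0 CPM in AVF males #04, #05 and #06 and at 73.4, 102 and 72.7 CPM in AVF females #07, #09 and #11. The sham veins had 77.7, 135 and 97.2 CPM in males #16, #17 and #18 and 74.1, 70.2 and 58.3 CPM in females #19, #22 and #23. The groups overlapped, with a log2 fold change of 0.21 (SE 0.20, adjusted p = 0.517, edgeR). The main transcripts of Ccl21b and Ccl21e are identical over 869 bases, both genes had the same value in every library, and Ccl21a differs from them at 6 of 869 aligned bases. Ccl21d held 32.1 CPM in AVF #11 and 23.2 CPM in sham #23, where Ccl21b, Ccl21e and Ccl21f held 0, and 1.36 CPM or less in every other library. The split of reads among the copies is therefore uncertain, and the sum of the 5 copies is the firmer value. It was 138 ± 30.7 CPM in AVF and 124 ± 37.1 CPM in sham (SD, n = 6), a log2 fold change of 0.16 (SE 0.20, adjusted p = 0.621, edgeR).

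Ccl19, the other ligand of Ccr7, was at 13.2 ± 4.03 CPM in AVF and 9.92 ± 3.71 CPM in sham (SD, n = 6; log2 fold change 0.41, SE 0.26, adjusted p = 0.295, edgeR). Its pseudogene Ccl19-ps6 took 3.50 to 11.0 CPM in every library. Summed over Ccl19 and its 5 pseudogenes, the log2 fold change was 0.51 (SE 0.24, adjusted p = 0.172, edgeR). The 5 lymphatic endothelium markers summed to 277 to 489 CPM in AVF and 212 to 319 CPM in sham, with Flt4 and Pdpn higher in AVF, and their part in these levels was not tested. The 6 lymph node stroma markers summed to 81.7 to 185 CPM in AVF and 95.9 to 175 CPM in sham, nearly all of it Clu, which many cells express (141 ± 45.2 and 138 ± 30.9 CPM, SD, n = 6). Of the other 5, Chst4 was at 1.14 ± 1.04 and 0.271 ± 0.595 CPM (SD, n = 6; adjusted p = 0.228, edgeR), Glycam1 and Ltf were too low to be tested, Madcam1 did not reach 3 counts in any library and Fdcsp was at 0 in every library.

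The remaining ligands were low, and none passed the test. Ccl24, an eotaxin, was at 3.52 ± 1.78 CPM in AVF and 3.95 ± 1.81 CPM in sham (SD, n = 6; adjusted p = 0.803, edgeR), so of the eotaxins Ccl11 alone passed. Ccl22, a ligand of Ccr4, was at 1.58 ± 0.484 and 1.87 ± 1.23 CPM, and Ccl17, the other, reached 2.02 CPM in #11 and 0.439 CPM or less in the other AVF libraries. Ccl25, the ligand of Ccr9, was at 3.61 ± 0.693 and 3.21 ± 0.912 CPM, and Cxcl14, whose receptor is not settled, at 3.93 ± 1.08 and 3.60 ± 1.40 CPM. Cx3cl1, fractalkine, a membrane-bound ligand of endothelium, was at 6.07 ± 1.86 and 6.86 ± 2.29 CPM (SD, n = 6; adjusted p = 0.670, edgeR). Of the ligands of Ccr10, Ccl28 was at 0.864 ± 0.483 and 1.43 ± 0.261 CPM (SD, n = 6; log2 fold change -0.70, SE 0.35, adjusted p = 0.193, edgeR), and Ccl27a, which shares reads with Ccl27b and Ccl27al, at 1.81 ± 0.431 and 2.14 ± 0.363 CPM. Pf4 and Ppbp, platelet chemokines by structure whose symbols fall outside the rule, were at 19.4 ± 8.51 and 25.7 ± 8.25 CPM (adjusted p = 0.383) and at 15.9 ± 11.7 and 40.8 ± 37.0 CPM (SD, n = 6; adjusted p = 0.148, edgeR).

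**Figure D5:**
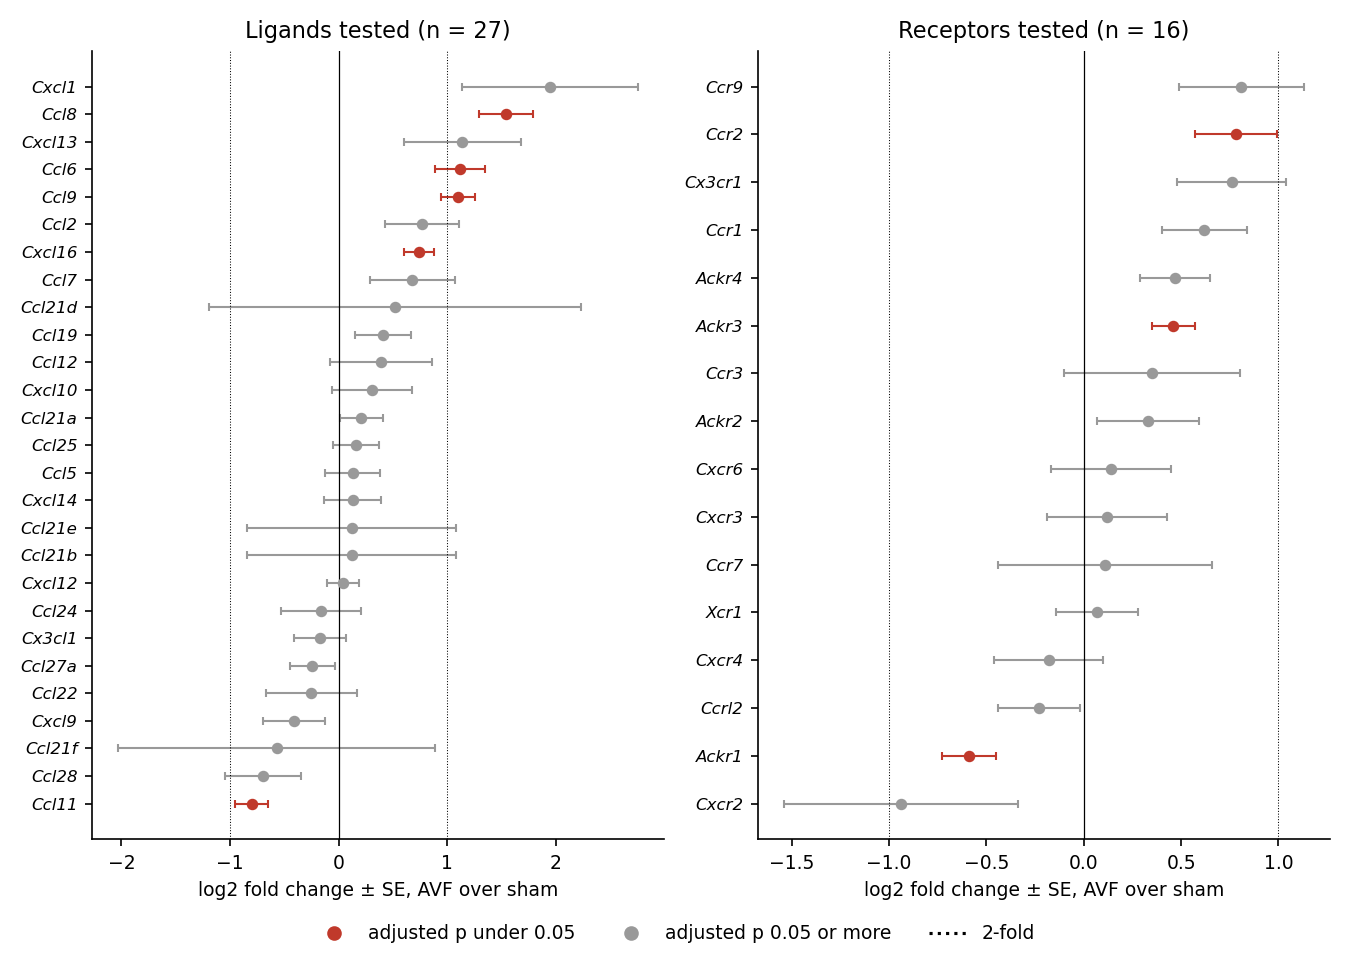
The log2 fold change of AVF over sham with its SE for the 27 ligands (left) and 16 receptors (right) tested, ordered by size, with an adjusted p under 0.05 in red, others in grey and dotted lines at 2-fold. Ccl8, Ccl6 and Ccl9 lie right of the 2-fold line in red, Cxcl1 and Cxcl13 lie beyond it in grey with wide bars, and Ccl11 is the only red ligand left of 0.

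Of 22 chemokine receptors and scavenging receptors, 16 were tested, and none was a DEG. Ccr2, the receptor of classical monocytes, was at 129 ± 30.0 and 75.3 ± 23.9 CPM (log2 fold change 0.78, SE 0.21, adjusted p = 0.0309, edgeR), with overlapping groups, and without #05 and #09 its log2 fold change was 0.74 and its adjusted p 0.0859. Ackr3, which takes up Cxcl12, was at 107 ± 17.0 and 77.6 ± 8.37 CPM (log2 fold change 0.46, SE 0.11, adjusted p = 0.0180, edgeR). Ackr1, the scavenging receptor of venular endothelium and red cells, was the receptor that fell, from 6.87 ± 1.17 CPM in sham to 4.56 ± 0.610 CPM in AVF (log2 fold change -0.59, SE 0.14, adjusted p = 0.0212, edgeR), with no overlap. Its adjusted p was 0.121 by edgeR's exact test and 0.0548 with no filter. With the adjusted p alone 2 of 16 receptors were thus higher, against 8.63% of all tested genes, and 1 lower, against 5.13%, and 7 had an unadjusted p under 0.05, against 31.6%. Ccr1, the receptor of Ccl6 and Ccl9, was at 18.0 ± 6.29 and 11.7 ± 2.17 CPM (SD, n = 6; log2 fold change 0.62, SE 0.22, adjusted p = 0.0754, edgeR). Ccr3, the receptor of Ccl11, was at 4.84 ± 2.01 and 3.79 ± 2.55 CPM (adjusted p = 0.641), Cxcr6, the receptor of Cxcl16, at 1.88 ± 0.703 and 1.70 ± 0.379 CPM (adjusted p = 0.802), and Cxcr4 at 14.8 ± 5.45 and 16.7 ± 5.48 CPM (SD, n = 6; adjusted p = 0.700, edgeR).

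Between the sexes, 36 members with more than 12 counts over the 12 samples were tested, with a threshold of 1.5-fold. No ligand was called between female and male AVF, where 0.0316% of all tested genes were called, and 3 ligands had an unadjusted p under 0.05 (Ccl17, Ccl19 and Ccl21a). None was called between female and male sham, where 0.0818% of all tested genes were called, and 6 had an unadjusted p under 0.05 (Ccl19, Ccl21a, Ccl21d, Cxcl5, Cxcl12 and Cxcl14). The share of all tested genes under that unadjusted cut is not given, so these counts are no result about the ligands. Ccl17 was highest in AVF #11 (2.02 CPM) and Ccl21d in sham #23 (23.2 CPM), each far from its group. Cxcl5 in sham was at 0 to 0.194 CPM, near the limit of detection. Ccl19 had the lowest adjusted p of the ligands named, 0.260 by edgeR in sham, at 6.85 ± 0.432 CPM in females and 13 ± 2.45 CPM in males (SD, n = 3). By DESeq2 it was called there, as were 239 of all 21992 tested genes. In AVF it was at 10.2 ± 1.45 CPM in females and 16.1 ± 3.52 CPM in males (SD, n = 3; adjusted p = 0.997, edgeR). No ligand was called for the interaction of operation and sex, as 0% of all tested genes were by edgeR, and none had an unadjusted p under 0.05. The log2 interaction was 0.30 (SE 0.53) for Ccl8, 0.23 (SE 0.32) for Ccl9 and -0.19 (SE 0.30) for Ccl11.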

How the data were processed

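Libraries were stranded, poly-A selected and read in pairs. PRINSEQ and Trimmomatic 0.39 removed tails, adapters and poor bases, STAR 2.7.7a mapped the reads to GRCm39 with the Ensembl annotation, and the authors deposited the expected counts that RSEM 1.3.3 gave for each gene, not normalized. Here 5.72% to 7.75% of the values per library were not whole, and expected counts were rounded for the tests. RSEM shares reads among near-identical genes, so values of gene copies are estimates.

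Gene names, biotypes, exon lengths and coordinates came from GENCODE M39 on GRCm39, a later annotation than that of the authors. 54749 of 55414 identifiers had a name in it. Protein sequences were not used here, and upstream sequences came from RefSeq on GRCm38.p6.

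Library sizes were scaled by TMM, and genes were tested by the quasi-likelihood method of edgeR 4.0.16 under R 4.3.3 without covariates, the filter being more than 1 CPM in at least 2 samples, or more than 12 counts in all between the sexes. DESeq2 1.42.0 and the other alternatives are given at the end. Every p value is adjusted over all tested genes, except in the counts that are called unadjusted. All samples were separate mice. As a check for duplicated libraries, the chi-square over its degrees of freedom was 40.9 to 695 between libraries of a group, so none were counted as 1 sample. Tests ran first on simulated data.

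The members and lists were chosen with earlier results of these data known. Values per sample were given for ligands with an adjusted p under 0.05 and for the 6 with the highest level per length in sham, and receptors were named with an adjusted p under 0.05. 1 gene of the receptor list is not reported here and is in none of its counts. Cxcr2, Ccr1, Ccr3, Cxcr6 and Cxcr4 were named in addition, as receptors of ligands described. The grouping of mice #05 and #09 is the study's and was made from expression, so no test compared them with the other AVF.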

Additional observations from a re-analysis of the deposited data

Results flagged for a closer look

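In 13 of 71 groups of 6 libraries searched, over the 42 ligands in AVF and in sham, 1 library stood far from the other 5. The cut-off flags about 1 in 20 groups where values are normally distributed, which was not checked for these CPM, taken without a log transform. The number flagged is therefore not read as an excess. AVF #11 accounted for 4 of them, with Ccl6 at 343 CPM (141 to 181 in the other AVF), Ccl9 at 198 CPM (111 to 135), Ccl17 at 2.02 CPM (0 to 0.439) and Ccl21d at 32.1 CPM (0 to 1.36). The macrophage and monocyte markers summed to 1586 CPM in #11, the highest of all libraries. Its erythroid markers were also the highest, at 19631 CPM, and its brown fat markers the lowest, at 17.3 CPM. The part of any of these cells in the values of #11 was not tested. AVF #09 held 2, Cxcl1 at 25.2 CPM (0.751 to 5.26 in the other AVF) and Cxcl10 at 10.1 CPM (2.21 to 3.83). AVF #04 also held 2, Ccl7 at 14.7 CPM (4.64 to 6.77) and Xcl1 at 0.687 CPM (0.0549 to 0.282). In AVF #07, the library with most ribosomal RNA, Ccl3 was at 1.19 CPM (0.0453 to 0.458).

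Among the sham libraries, #23 held 2, Ccl21d at 23.2 CPM (0 to 0.382 in the other sham) and Ccl17 at 0.630 CPM (0 to 0.0947). Cxcl9 was at 33.7 CPM in #19 (9.99 to 18.6), and Cxcl13 at 31.8 CPM in #16 (7.11 to 14.7).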

How the results depend on the processing

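The 5 ligands with an adjusted p under 0.05 (Ccl8, Ccl6, Ccl9, Cxcl16 and Ccl11) kept it and their direction under every alternative run, including both other tests, both other normalizations, both other filters, sex as a covariate, removal of ribosomal RNA genes and removal of #05 and #09. 3 ligands were DEG higher under all of these except the exact test, which gave 4 with Cxcl1. With each library left out in turn, 1 to 3 were higher, 1 only without #11, where Ccl6 and Ccl9 changed by less than 2-fold. With no fold change threshold, 4 ligands were higher and 1 was lower, 2 receptors were higher and 1 receptor was lower. Ccr2 had an adjusted p of 0.05 or more without #05 and #09, and in 5 of 12 fits with a library left out, and Ackr1 by the exact test (0.121) and with no filter (0.0548). Between female and male sham, DESeq2 called 1 of 36 ligands, Ccl19, and 239 of all 21992 tested genes. Summing the copies of Ccl19, Ccl21 and Ccl27, chosen after seeing the data, left 3 ligands higher and 0 lower.

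The labels number the replicates and do not say that the numbers pair mice. Deviations of same-numbered AVF and sham mice of a sex correlated at -0.206 to 0.257, and those of differently numbered mice at -0.245 to 0.188. With so few mice, these ranges do not settle whether the numbers pair them. With the replicate block, 3 ligands were higher and 0 lower, with log2 fold changes of 1.59 for Ccl8, 1.09 for Ccl6, 1.10 for Ccl9, 0.76 for Cxcl16 and -0.82 for Ccl11.

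The median log2 fold change of the ligands was 0.10 to 0.34 with each library left out. 15 ligands were under the filter, 6 of which did not reach 3 counts in any library, and at these depths a level under 0.127 to 0.324 CPM cannot be told from 0.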
